A study of Rattus norvegicus with 6 samples.

Results

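The cytochrome P450 genes expressed in rat glomerular isolates were compared between preparations enriched in and deprived of parietal epithelial cells (PECs), the flat cells that line Bowman's capsule. Members were all probesets annotated with exactly 1 gene symbol that begins with Cyp and a digit, which gave 69 probesets for 69 genes, of 29215 probesets and 14506 genes on the array. All 69 were matched to a RefSeq gene by Entrez ID, and 1 of them, Cyp2s1-ps1, is a pseudogene. Cytochromes P450 are heme enzymes that insert an oxygen atom into fats, steroids, vitamins and drugs, with electrons delivered by a reductase. In the kidney they are best known from the proximal tubule, where Cyp4a enzymes hydroxylate fatty acids and Cyp2c enzymes make epoxides of arachidonic acid that act on vessels and salt transport. The kidney also carries the enzymes that activate and break down vitamin D.

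Total RNA was hybridized to 6 Affymetrix Rat Gene 1.0 ST arrays, a platform with probes along the whole transcript. The 3 PEC-enriched arrays hold preparations of adult male Sprague-Dawley rats caught on a 90 µm sieve and labelled as capsulated glomeruli, and the 3 PEC-deprived arrays hold preparations labelled as decapsulated glomeruli, of the same strain, sex and age, collected on a 75 µm sieve. None was cultured or treated. Isolations were made from individual rats, and the methods give a number of 3 animals. The sources do not say whether both fractions came from the same animals. A pairing is therefore possible, and the main model, of group alone, would ignore it. The p-values measure only the spread between these preparations. Both kinds of isolate are mixtures of cells. The study describes decapsulated glomeruli in the PEC-enriched preparations too, and tubule fragments in both kinds. It gives their shares for each numbered preparation, but does not tie those numbers to the arrays. The shares were not set beside the expression values here. In such bulk RNA, fewer cells of a type and less RNA per cell cannot be told apart.

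Values are log2 expression values from RMA, and a log2 fold change is the PEC-enriched mean minus the PEC-deprived mean. Levels of different probesets are not read as relative amounts of RNA, since probes differ in brightness. The array medians lay between 6.69 and 6.75, and correlations between arrays between 0.9816 and 0.9937. Among marker lists, all 13 measured PEC genes had higher means in PEC-enriched isolates, with a median log2 fold change of 0.65, and the 9 podocyte genes had a median of -0.003. All 20 measured proximal tubule genes were also higher (median 1.04), as were all 9 genes of the thick ascending limb (median 1.45), while all 11 endothelial genes were lower (median -0.48). No gene of any list passed the test.

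No cytochrome P450 gene passed limma's test at the 0.01 threshold for p adjusted across the array, against 0% of all 29215 probesets. The study set the same threshold but used its own Bayesian test. With that test it listed many genes as different, with Cyp4a1 and Cyp4a2 higher in PEC-enriched isolates. The lack of calls by limma is therefore not the study's result. By limma, the lowest adjusted p in the family was 0.152, for Cyp26a1, with an unadjusted p of 0.000173. This adjusted value was also the lowest over the whole array, but it was shared by other genes. Among them was Cldn16 of the thick ascending limb list, with a lower unadjusted p of 1.62e-05. The genes with the greatest difference between means were 3 fatty acid hydroxylases of the Cyp4a subfamily, the xenobiotic oxidase Cyp2e1 and the arachidonic acid epoxygenase Cyp2c23, which were 1.89 to 2.27-fold higher in PEC-enriched isolates. The lowest were Cyp7b1 and Cyp2j4, at 1.43-fold and 1.41-fold lower. The family was otherwise close to even, with 34 genes higher and 35 lower (49.3% higher, against 44.8% of all genes) and a median log2 fold change of -0.0017, against -0.0189 for all genes. Log2 fold changes of 51 of the 69 genes lay between -0.25 and 0.25.

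Before adjustment, limma's p was under 0.05 for 11 higher and 3 lower members, against 7.96% of all genes higher and 5.65% lower. The values of the groups did not overlap for 9 higher members, Cyp2e1, Cyp2c23, Cyp4f1, Cyp26a1, Cyp2r1, Cyp4v3, Cyp39a1, Cyp2s1 and Cyp2d5, against 9.68% of all genes. They did not overlap for 5 lower members, Cyp7b1, Cyp2j4, Cyp4b1, Cyp2g1 and Cyp3a2, against 9.00% of all genes. Log2 fold changes were above 0.5 for 8 members, against 3.63% of all genes, and under -0.5 for 1, against 1.32%. A regularised Bayesian test with a local variance prior, nearer to the one the methods name, called 0 members at 0.01, against 0.600% of all genes called higher. At 0.05 it called 3 higher members, Cyp4a1, Cyp2c23 and Cyp2e1, with adjusted p of 0.0273, 0.0286 and 0.0455, against 1.73% of all genes, and 0 lower members, against 0.296%.

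**Figure D1:**
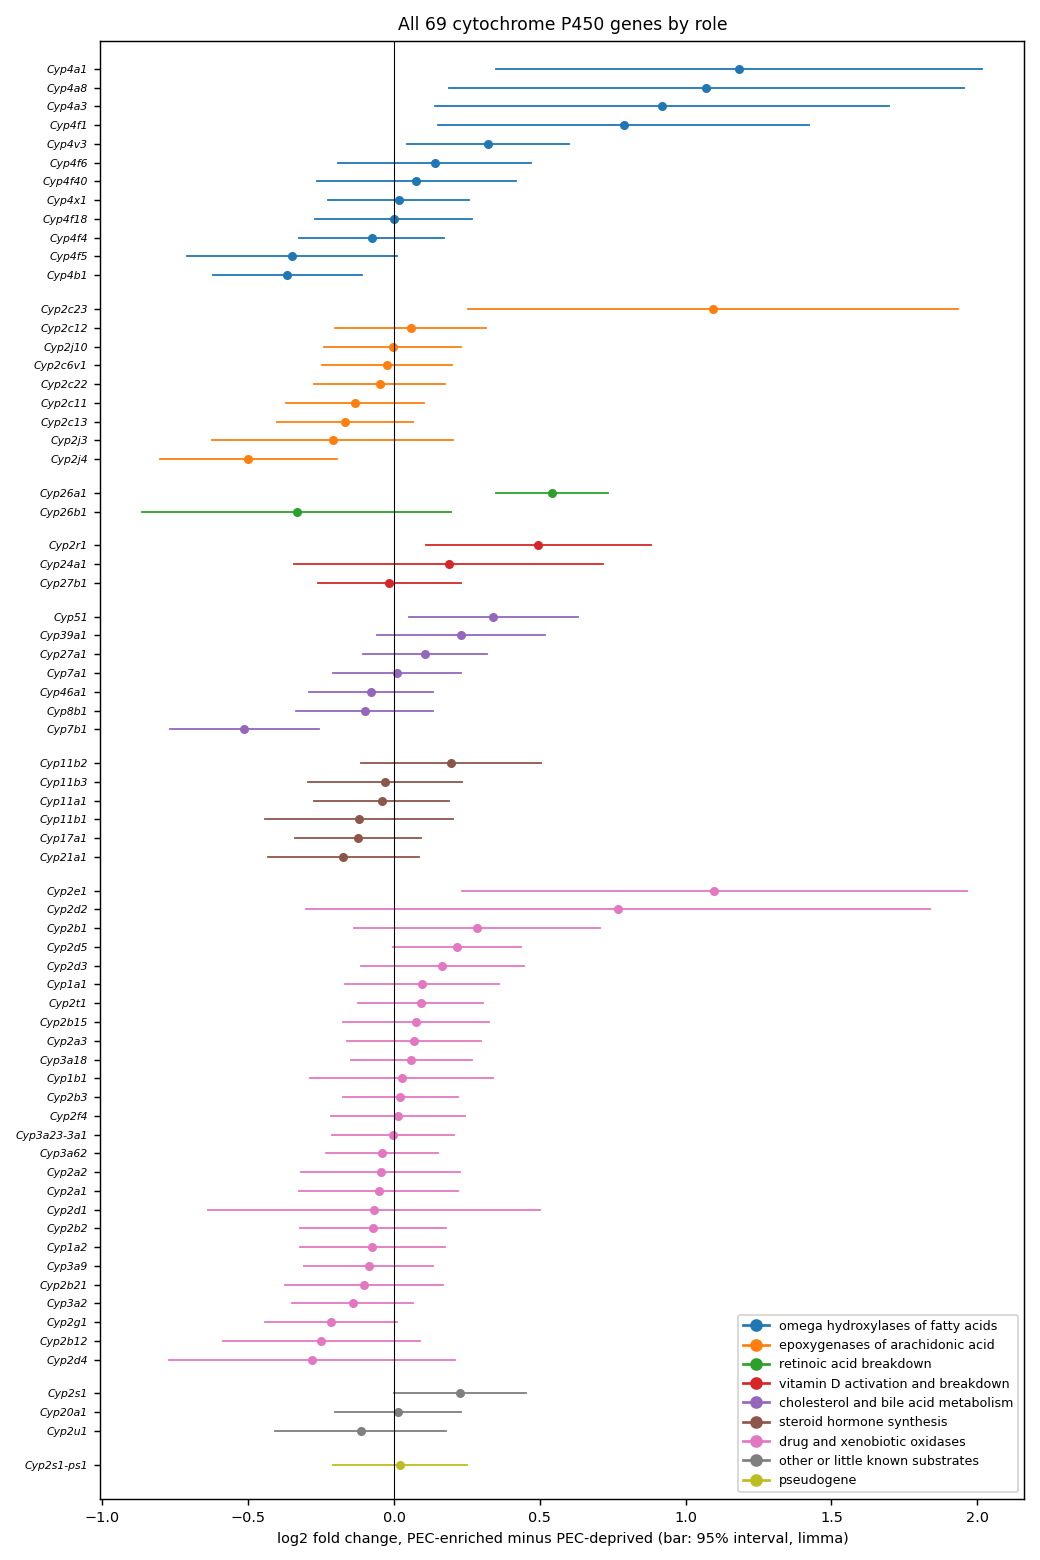
Log2 fold changes (PEC-enriched minus PEC-deprived) of all 69 cytochrome P450 genes, grouped and coloured by role, with limma's 95% interval as bars that are not adjusted for the number of genes. Cyp4a1, Cyp2e1, Cyp2c23 and Cyp4a8 lie above 1, with wide bars, whereas Cyp26a1 lies at 0.54 with a narrow bar and most drug oxidases lie near 0.

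Promoters were searched for nuclear receptor motifs, since several of these genes are textbook targets of such receptors. RefSeq windows of 250 bases before to 50 bases after the start (build GRCr8) were matched for 55 of the 69 members, and no window was at hand for Cyp4a1. The 5 windows shown belong to the member with the lowest p and to 4 of the highest members. They are written 5′ to 3′ on the gene's strand, and capitals mark matches to the 6-base cores that nuclear receptors read, AGTTCA, the variant GGTTCA, and the consensus AGGTCA. In Cyp26a1 the capitals are 2 copies of AGTTCA on the opposite strand.
Cyp26a1, chr1:244883572-244883871, + strand: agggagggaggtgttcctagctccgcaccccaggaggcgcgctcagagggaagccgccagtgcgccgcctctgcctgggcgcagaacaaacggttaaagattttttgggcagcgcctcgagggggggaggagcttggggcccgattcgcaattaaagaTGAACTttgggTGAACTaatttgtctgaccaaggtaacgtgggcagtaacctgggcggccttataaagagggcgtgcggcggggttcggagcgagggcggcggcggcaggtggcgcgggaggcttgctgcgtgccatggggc
Cyp4a3, chr5:134352187-134352486, - strand: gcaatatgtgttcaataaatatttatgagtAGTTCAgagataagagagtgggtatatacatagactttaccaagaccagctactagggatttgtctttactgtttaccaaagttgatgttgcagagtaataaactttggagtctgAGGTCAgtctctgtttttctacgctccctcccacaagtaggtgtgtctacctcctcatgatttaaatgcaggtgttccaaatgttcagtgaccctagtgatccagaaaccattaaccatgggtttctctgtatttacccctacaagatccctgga
Cyp4a8, chr5:133970177-133970476, - strand: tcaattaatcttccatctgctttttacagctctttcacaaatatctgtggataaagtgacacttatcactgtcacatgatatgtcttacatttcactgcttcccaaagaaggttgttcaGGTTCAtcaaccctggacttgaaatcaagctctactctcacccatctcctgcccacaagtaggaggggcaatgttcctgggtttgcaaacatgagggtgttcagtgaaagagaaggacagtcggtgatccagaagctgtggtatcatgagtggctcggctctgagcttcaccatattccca
Cyp2e1, chr1:205269717-205270016, + strand: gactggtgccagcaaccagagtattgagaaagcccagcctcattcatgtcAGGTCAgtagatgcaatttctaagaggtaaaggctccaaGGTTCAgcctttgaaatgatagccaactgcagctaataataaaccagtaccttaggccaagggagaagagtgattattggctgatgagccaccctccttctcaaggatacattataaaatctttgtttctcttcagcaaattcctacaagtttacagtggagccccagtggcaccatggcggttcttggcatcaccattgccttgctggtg
Cyp2c23, chr1:252863018-252863317, - strand: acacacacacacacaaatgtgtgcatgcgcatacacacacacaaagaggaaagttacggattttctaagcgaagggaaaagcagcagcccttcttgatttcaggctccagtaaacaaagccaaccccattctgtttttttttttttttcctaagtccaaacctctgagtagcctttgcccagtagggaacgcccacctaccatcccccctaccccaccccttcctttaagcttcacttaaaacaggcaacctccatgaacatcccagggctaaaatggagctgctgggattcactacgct

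The Cyp26a1 window holds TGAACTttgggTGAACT at -92 to -76 from the start, which read on the opposite strand is a direct repeat of AGTTCA with a 5-base spacer, the textbook form of a retinoic acid response element. Searched on both strands, 2 copies of AGTTCA in the same direction with any 5 bases between them were found in 1 of the 55 member windows (1.82%) and in 3 of all 27457 windows (0.0109%). Only this spelling, that of the Cyp26a1 element itself, was searched as a repeat with a 5-base spacer. Repeats with GGTTCA or AGGTCA were not, so these shares do not count all elements of this form. The match in Cyp26a1 was fixed in advance by this choice, so the member share cannot be read as an excess over all windows. The single core AGTTCA, which the searched repeat contains, was in 14 member windows (25.5%, against 14.4% of all). The core GGTTCA was in 16 (29.1%, against 11.6%) and AGGTCA in 18 (32.7%, against 15.7%). The direct repeat read by PPAR, searched as 2 copies of AGGTCA with any 1 base between them, was in 0 member windows and in 0.0583% of all. CAAAGTCCA, an HNF4 spelling, was in 2 member windows (3.64%, against 0.375%), both of the Cyp3a subfamily, and CAAAGGTCA was in 0, against 0.379%. GCGTG, the core of the aryl hydrocarbon receptor element, was in 17 member windows (30.9%, against 31.1%), and TATAAA, the letters of the TATA box, in 16 (29.1%, against 14.3%). TATAAA was counted on either strand and at any position, so not every match is a TATA box of the gene. Close copies within a subfamily share promoter sequence, so these windows are not independent, and a match describes letters and not binding.

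Omega hydroxylases add a hydroxyl group to the end of fatty acids, and 12 members have this role. The mean was higher in PEC-enriched isolates for 8 and lower for 4, with a median log2 fold change of 0.11. Before adjustment, p was under 0.05 for 5 higher members and 1 lower, against 7.96% and 5.65% of all genes. The 3 measured Cyp4a genes accounted for the highest values, with a median of 1.07. Cyp4a enzymes turn arachidonic acid into a hydroxy acid that constricts vessels and limits salt reabsorption, and are induced by PPARα.

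Cyp4a1 had log2 values of 7.23, 7.62 and 6.29 in PEC-enriched replicates 1, 2 and 3 and of 6.41, 5.34 and 5.84 in PEC-deprived replicates 1, 2 and 3. The groups overlapped, since PEC-enriched replicate 3 lay under PEC-deprived replicate 1. The means were 7.05 ± 0.686 and 5.86 ± 0.536 (SD, n = 3 arrays each). The log2 fold change was 1.18 ± 0.363 (SE) with an adjusted p of 0.316 by limma. Cyp4a1 is among the genes that the study called higher from these same arrays with its own test, so its direction is not independent evidence.

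Cyp4a8 measured 8.79, 9.30 and 8.72 in PEC-enriched and 8.80, 7.09 and 7.70 in PEC-deprived replicates 1 to 3. PEC-deprived replicate 1 stood at the level of the PEC-enriched arrays, and the other PEC-deprived arrays lay more than 1 log2 unit below it. Its log2 fold change was 1.07 ± 0.384 (SE), with an adjusted p of 0.370. Cyp4a3 measured 9.52, 10.32 and 9.92 against 9.69, 8.28 and 9.03, again with PEC-deprived replicate 1 inside the PEC-enriched range, and its log2 fold change was 0.92 ± 0.338 (adjusted p = 0.383). Without PEC-deprived replicate 2 the values of Cyp4a8 and Cyp4a3 were 0.68 and 0.56. Cyp4a2, which the study also listed as higher in PEC-enriched isolates, was not analysed here. It is a close copy of Cyp4a3, and probes of the latter may read both.

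Among the 6 Cyp4f genes, whose enzymes hydroxylate leukotrienes and other eicosanoids, 3 were higher and 3 lower. Cyp4f1 measured 8.01, 8.87 and 8.13 in PEC-enriched and 7.87, 7.02 and 7.75 in PEC-deprived isolates, without overlap, a log2 fold change of 0.79 ± 0.277 (adjusted p = 0.362). Without PEC-enriched replicate 2, its highest array, the difference was 0.52. Cyp4f5 lay on the other side, at 8.22, 8.04 and 7.92 against 8.68, 8.10 and 8.44, with overlapping groups and a log2 fold change of -0.35 ± 0.157 (adjusted p = 0.50), which was -0.21 without PEC-deprived replicate 1. The remaining members Cyp4f4, Cyp4f6, Cyp4f18 and Cyp4f40 had log2 fold changes between -0.08 and 0.14.

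Cyp4b1, an oxidase of short fatty acids and of plant and airborne toxins, measured 7.47, 7.33 and 7.64 in PEC-enriched and 7.89, 7.91 and 7.72 in PEC-deprived isolates. All PEC-enriched values lay below all PEC-deprived ones, and the log2 fold change was -0.37 ± 0.111 (adjusted p = 0.310). Cyp4v3, a hydroxylase of medium-chain fatty acids, had a log2 fold change of 0.32 ± 0.120 without overlap (adjusted p = 0.391), and Cyp4x1 one of 0.02. In RefSeq order on chromosome 5, Cyp4x1, Cyp4a8, Cyp4a3, Cyp4a1 and Cyp4b1 follow each other, with only the protein-coding genes Cyp4a2 and Cyp4a2l1 between Cyp4a8 and Cyp4a3. The 3 Cyp4a genes with log2 fold changes of 0.92 to 1.18 were thus flanked by genes at 0.02 and -0.37.

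**Figure D2:**
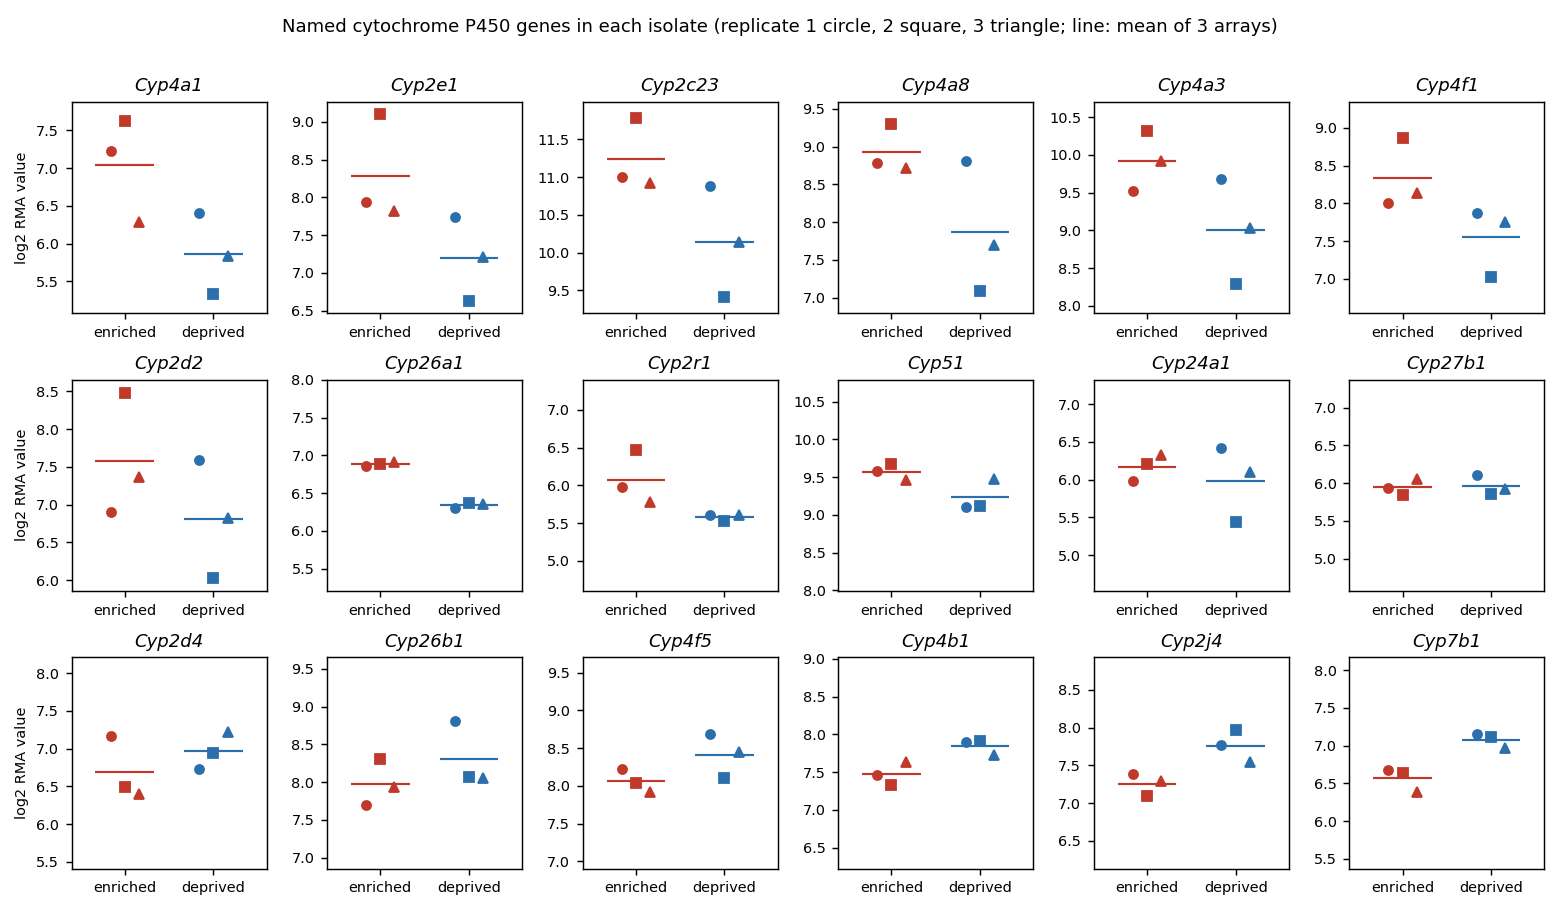
Log2 RMA values of 18 cytochrome P450 genes in each PEC-enriched (red) and PEC-deprived (blue) array, with replicates 1, 2 and 3 as circle, square and triangle and the mean of 3 arrays as a line. Each panel has its own range. In the first row the squares are the highest red and the lowest blue points, while the points of Cyp26a1 lie close together within each group.

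Epoxygenases of arachidonic acid were represented by 9 members, of which 2 were higher and 7 lower, with a median log2 fold change of -0.05. Cyp2c23, the main epoxygenase of rat kidney, stood apart from them. It measured 11.00, 11.79 and 10.92 in PEC-enriched and 10.88, 9.41 and 10.14 in PEC-deprived isolates. The groups did not overlap, although PEC-deprived replicate 1 lay only just below the lowest PEC-enriched value. The log2 fold change was 1.09 ± 0.366 (SE), with an adjusted p of 0.345, and was 0.73 without PEC-deprived replicate 2. The other Cyp2c members, Cyp2c6v1, Cyp2c11, Cyp2c12, Cyp2c13 and Cyp2c22, known mostly from liver, lay between -0.17 and 0.06, and all were below the median level of all probesets, 6.72.

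All 3 Cyp2j genes, whose enzymes also make epoxides of arachidonic acid, had lower means in PEC-enriched isolates. Cyp2j4 measured 7.38, 7.10 and 7.29 against 7.76, 7.96 and 7.54, without overlap, a log2 fold change of -0.50 ± 0.132 (adjusted p = 0.248). Cyp2j3, its neighbour on chromosome 5, had a log2 fold change of -0.21 ± 0.180 and Cyp2j10 one of -0.0048. Cyp2c23 and Cyp2j4 therefore lay on opposite sides of 0, and the difference between them was not tested.

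Retinoic acid is broken down by Cyp26 enzymes, whose genes respond to retinoic acid itself, and both measured members lay on opposite sides of 0. Cyp26a1 measured 6.86, 6.88 and 6.91 in PEC-enriched and 6.30, 6.36 and 6.36 in PEC-deprived isolates. The means were 6.88 ± 0.0254 and 6.34 ± 0.0346 (SD, n = 3 arrays each), so that the groups were separated by many times their spread. Its log2 fold change was 0.54 ± 0.0829 (SE), 1.46-fold, with an adjusted p of 0.152 by limma and of 0.163 by the regularised test. With any single array left out the value stayed between 0.52 and 0.55. Cyp26a1 is the gene whose promoter window holds the printed direct repeat of AGTTCA.

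Cyp26b1 measured 7.70, 8.30 and 7.93 in PEC-enriched and 8.81, 8.07 and 8.05 in PEC-deprived isolates, with overlapping groups. PEC-deprived replicate 1 was the highest array, and the log2 fold change of -0.33 ± 0.230 (adjusted p = 0.727) was -0.08 without it. No match to the repeat was found in its window.

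Vitamin D is activated by hydroxylation in the liver and then in the kidney, and 3 members carry out these steps or the breakdown. Cyp2r1, which performs the first step, measured 5.97, 6.47 and 5.78 in PEC-enriched and 5.61, 5.53 and 5.60 in PEC-deprived isolates. The groups did not overlap, and the PEC-deprived arrays had an SD of only 0.0451. The log2 fold change was 0.49 ± 0.167 (adjusted p = 0.351), and 0.30 without PEC-enriched replicate 2.

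Cyp27b1, the activating enzyme of the kidney, measured 5.94, 5.84 and 6.06 against 6.10, 5.86 and 5.93, a log2 fold change of -0.02 ± 0.106 with a 95% interval from -0.26 to 0.23. Cyp24a1, which inactivates the hormone, measured 5.98, 6.20 and 6.32 against 6.42, 5.43 and 6.10, a log2 fold change of 0.19 ± 0.230 whose sign turned to -0.09 without PEC-deprived replicate 2. Both renal enzymes overlapped between groups, and all 3 vitamin D members were below the median level of all probesets.

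Of 7 members in cholesterol and bile acid metabolism, 4 were higher and 3 lower. Cyp51, the lanosterol demethylase of cholesterol synthesis, measured 9.58, 9.68 and 9.46 in PEC-enriched and 9.10, 9.11 and 9.47 in PEC-deprived isolates. PEC-deprived replicate 3 fell within the PEC-enriched range, and the log2 fold change was 0.34 ± 0.126 (adjusted p = 0.387). Cyp7b1, which hydroxylates oxysterols, had the lowest log2 fold change of the family. It measured 6.67, 6.64 and 6.38 against 7.16, 7.11 and 6.97, without overlap, a log2 fold change of -0.51 ± 0.111 (adjusted p = 0.187). Cyp7a1, Cyp8b1, Cyp27a1, Cyp39a1 and Cyp46a1 lay between -0.10 and 0.23, and of these Cyp7a1, the first enzyme of bile acid synthesis in liver, lay at 0.0096.

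The 6 members of steroid hormone synthesis, Cyp11a1, Cyp11b1, Cyp11b2, Cyp11b3, Cyp17a1 and Cyp21a1, are enzymes of the adrenal and gonads. All were below the median level of all probesets, 1 was higher and 5 lower, and log2 fold changes lay between -0.17 and 0.19, with none at an unadjusted p under 0.05. Of the 7 measured genes of the adrenal cortex list, 5 were higher, with a median log2 fold change of 0.0049. Its genes farthest from 0 were Scarb1, a lipoprotein receptor of steroid and other cells, at -0.47 ± 0.149 (adjusted p = 0.327), and Fdx1, the electron donor of mitochondrial P450 enzymes, at 0.23 ± 0.103 (adjusted p = 0.503). Star, the cholesterol carrier of steroid cells, lay at 0.0049 and Mc2r, the corticotropin receptor, at 0.0025.

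Drug and xenobiotic oxidases were the most numerous group, with 26 members of the Cyp1, Cyp2a, Cyp2b, Cyp2d, Cyp2e, Cyp2f, Cyp2g, Cyp2t and Cyp3a subfamilies. There were 13 higher and 13 lower, 21 were below the median level of all probesets, and the median log2 fold change was 0.0042. Cyp2e1, the ethanol-inducible oxidase of small molecules, measured 7.94, 9.11 and 7.82 in PEC-enriched and 7.74, 6.62 and 7.21 in PEC-deprived isolates. The groups did not overlap, but PEC-enriched replicate 3 and PEC-deprived replicate 1 lay close together. Its log2 fold change was 1.10 ± 0.376 (adjusted p = 0.354) and was 0.69 without PEC-enriched replicate 2.

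Cyp2d2, a debrisoquine-type drug oxidase, measured 6.90, 8.48 and 7.36 against 7.60, 6.03 and 6.82, with wide overlap. The log2 fold change of 0.77 ± 0.465 (adjusted p = 0.672) ranged from 0.32 without PEC-enriched replicate 2 to 1.16 without PEC-deprived replicate 1. Cyp2d4, the Cyp2d form best known from brain, measured 7.17, 6.50 and 6.40 against 6.74, 6.95 and 7.22, also overlapping, a log2 fold change of -0.28 ± 0.213 (adjusted p = 0.761). Its value was -0.52 without PEC-enriched replicate 1 and -0.14 without PEC-enriched replicate 3. These 2 genes lie at the ends of the Cyp2d cluster on chromosome 7, with Cyp2d5, Cyp2d1 and Cyp2d3 between them at 0.22, -0.07 and 0.17. The Cyp2d genes are close copies, so that probes may be shared.

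Cyp1a1, Cyp1a2 and Cyp1b1, the oxidases that the aryl hydrocarbon receptor induces, had log2 fold changes of 0.10, -0.07 and 0.03. The Cyp2a, Cyp2b, Cyp2f, Cyp2g and Cyp2t members, which lie in one cluster on chromosome 1, ranged from -0.25 for Cyp2b12 to 0.28 for Cyp2b1, none with an unadjusted p under 0.05. The 5 Cyp3a members, the main drug oxidases of liver, ranged from -0.14 to 0.06. Of Cyp2s1, Cyp2u1 and Cyp20a1, whose substrates are less known, Cyp2s1 was the highest, at 0.23 ± 0.0982 without overlap (adjusted p = 0.477), and the pseudogene Cyp2s1-ps1 lay at 0.02.

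**Figure D3:**
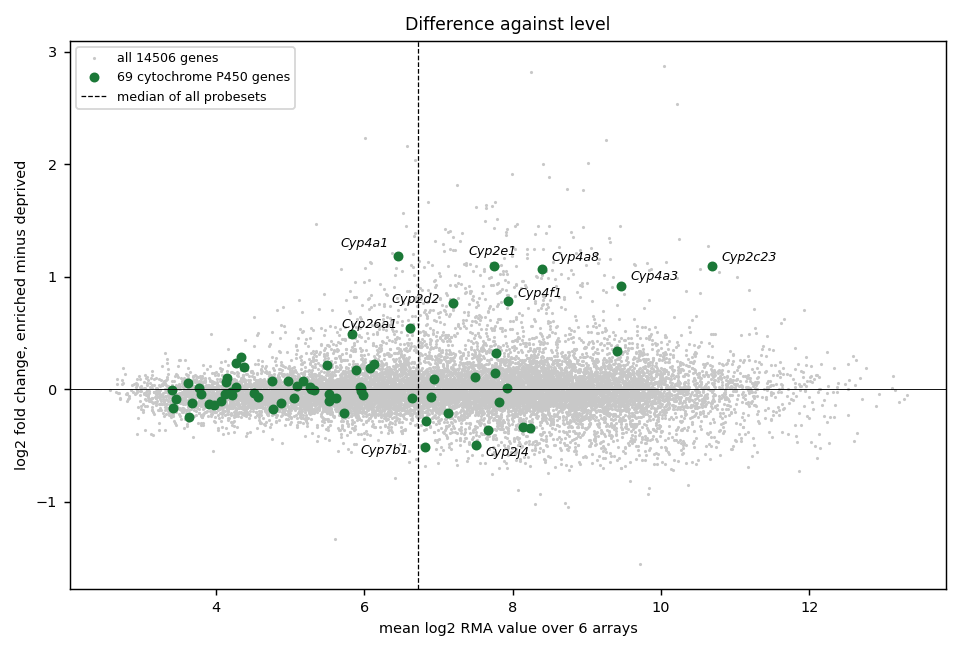
Log2 fold change (PEC-enriched minus PEC-deprived) against the mean log2 RMA value over 6 arrays for all 14506 genes (grey) and the 69 cytochrome P450 genes (green), with the median of all probesets, 6.72, as a dashed line. Of the green points, 48 lie left of the line, mostly near 0, and Cyp2c23 is the farthest right.

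Of the 69 members, 48 had a mean below the median of all probesets. Of these, 4 were higher and 0 lower at an unadjusted p under 0.05, against 5.05% and 2.75% of all genes below that level. The 4 were Cyp4a1, Cyp26a1, Cyp2r1 and Cyp2s1, with means over all arrays of 6.45, 6.61, 5.83 and 6.13. Of the 21 members above the median, 7 were higher and 3 lower, against 9.93% and 7.61% of all genes above it. Of these 21, 12 had a higher mean (57.1%, against 49.0% of all genes above that level). Detection above background is unknown, also for Cyp4a1 and Cyp26a1. The values near 0 of dim members therefore do not show that those genes were equal between the groups.

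The highest members shared a pattern over single arrays, beside the difference between groups. PEC-enriched replicate 2 was the highest and PEC-deprived replicate 2 the lowest of the 6 arrays for 9 members, namely Cyp4a1, Cyp2e1, Cyp2c23, Cyp4a8, Cyp4a3, Cyp4f1, Cyp2d2, Cyp2r1 and Cyp4v3. This was 13.0% of the family, against 9.11% of all genes. Among the lists it held for 18 of the 20 proximal tubule markers (90.0%), 46.2% of the PEC markers, 45.5% of the PPARα targets, 38.5% of the vitamin D and phosphate axis and 11.1% of the thick ascending limb markers. Within the PEC-deprived group, replicate 1 was above replicate 3 and replicate 3 above replicate 2 for 21 members (30.4%, against 20.3% of all genes).

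The mean of the 20 proximal tubule markers, relative to its mean over all arrays, was 0.31, 0.86 and 0.26 log2 units in PEC-enriched and 0.10, -1.05 and -0.48 in PEC-deprived replicates 1 to 3. The same quantity for the 7 members with the highest log2 fold change was 0.21, 1.09 and 0.18 against 0.16, -1.16 and -0.48. For the 13 PEC markers the values were 0.16, 0.63 and 0.36 against -0.18, -0.59 and -0.38. All 3 put replicate 2 at the extremes and PEC-deprived replicate 1 nearest to the PEC-enriched arrays. The 9 thick ascending limb markers, at 0.98, 0.64 and 0.60 against -0.20, -1.13 and -0.88, were highest in PEC-enriched replicate 1. The PEC list is not specific to PECs. The study also saw the proteins of its members Cdh6 and Pax8 in tubules, and Wt1 is also in the podocyte list. The part of tubule or PEC RNA in the differences of Cyp4a1, Cyp4a3, Cyp4a8, Cyp2c23, Cyp2e1, Cyp4f1 and Cyp2d2 was not tested. Cyp26a1 did not follow this order, since its PEC-deprived replicates 2 and 3 were both at 6.36 and its PEC-enriched replicates spanned 6.86 to 6.91.

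Beside the lower members Cyp7b1, Cyp2j4 and Cyp4b1, the mean of the 11 endothelial markers was 0.11, -0.42 and -0.41 in PEC-enriched and 0.18, 0.31 and 0.23 in PEC-deprived isolates. The 11 leukocyte markers, 10 of them lower, gave 0.10, -0.39 and -0.14 against 0.18, 0.001 and 0.25. The part of these cells in the differences was not tested. The mean of the 10 hepatocyte markers lay between -0.05 and 0.08 on all arrays, with 5 of them higher. Single markers were farther from 0 in opposite directions, with log2 fold changes of 0.58 ± 0.147 for Fgb (adjusted p = 0.230), without overlap, and of -0.44 ± 0.193 for Tf (adjusted p = 0.485).

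**Figure D4:**
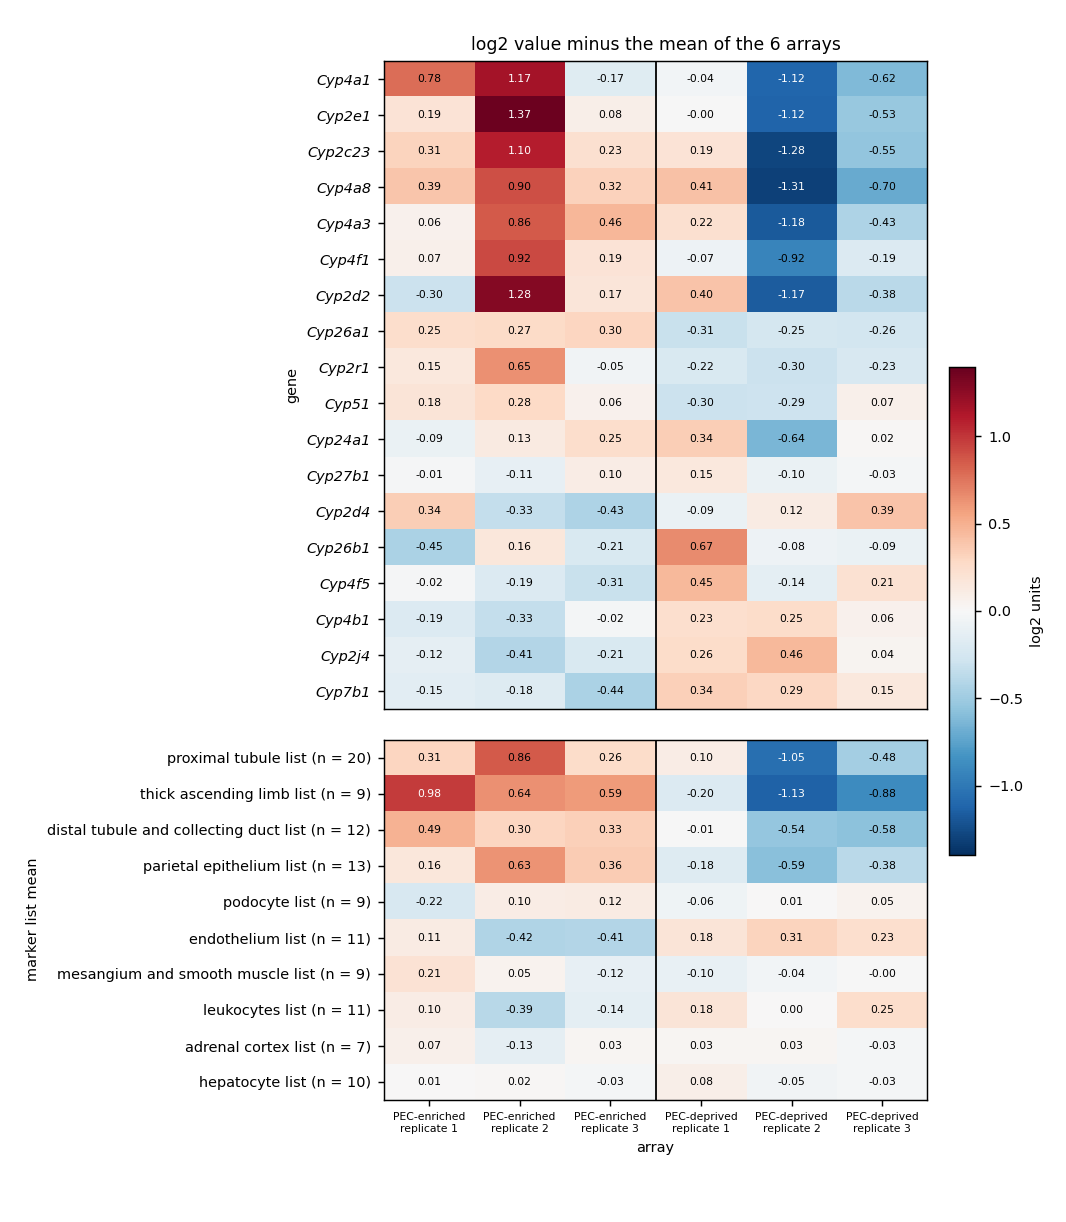
Heat map of log2 values minus the mean of the 6 arrays for 18 cytochrome P450 genes (upper rows) and for the means of 10 cell type marker lists (lower rows), with 1 column per array and numbers in log2 units. PEC-enriched replicate 2 is the reddest and PEC-deprived replicate 2 the bluest column for Cyp2e1, Cyp2c23 and the Cyp4a genes and for the proximal tubule and parietal epithelium lists. Cyp26a1 is even within each group.

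Genes that work with the cytochromes P450 were described from 5 lists, and none of their genes passed the test. Over all genes, 44.8% had a higher mean, and limma's unadjusted p was under 0.05 for 7.96% higher and 5.65% lower. Of 20 measured electron donors and genes of heme supply, 14 were higher, with a median log2 fold change of 0.12. At an unadjusted p under 0.05, 2 were higher and 0 lower. Por, the reductase that feeds microsomal P450 enzymes, had a log2 fold change of 0.16 ± 0.115. The greatest differences were 0.43 ± 0.142 for Pgrmc1, a heme-binding partner of P450 enzymes, and 0.29 ± 0.134 for Ppox, an enzyme of heme synthesis, with adjusted p of 0.343 and 0.509.

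Of 13 genes that release or further process arachidonic acid products, 5 were higher and 8 lower, with a median of -0.05. Limma's unadjusted p was under 0.05 for 0 higher and 1 lower. Ptgs1, a cyclooxygenase, had the lowest value, -0.39 ± 0.149 (adjusted p = 0.412), and Ptges, a prostaglandin E synthase, the highest, 0.24 ± 0.135 (adjusted p = 0.649). Of 18 nuclear receptors and genes of the aryl hydrocarbon receptor axis, 12 were higher. Here 5 higher and 0 lower had an unadjusted p under 0.05, against 7.96% and 5.65% of all genes.

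Hnf4a, a regulator of proximal tubule and liver genes, measured 8.98, 9.38 and 8.83 in PEC-enriched and 8.67, 7.49 and 8.09 in PEC-deprived isolates, without overlap. Its log2 fold change was 0.98 ± 0.279 (adjusted p = 0.281), and PEC-enriched replicate 2 was its highest and PEC-deprived replicate 2 its lowest array, as for the Cyp4a genes. Ppargc1a, a coactivator of oxidative metabolism, had a log2 fold change of 0.70 ± 0.117 (adjusted p = 0.159). Ppara, the receptor behind Cyp4a induction, had one of 0.35 ± 0.150 (adjusted p = 0.465), and Ahr one of -0.24 ± 0.114 (adjusted p = 0.524). Por, Ppara, Ahr, Vnn1, Star, Mc2r and the hepatocyte markers Fgb and Tf were added to the named genes after their values were seen.

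Among 11 measured fatty acid targets of PPARα, which Cyp4a genes also are, 8 were higher and 3 lower, with a median of 0.18. Limma's unadjusted p was under 0.05 for 4 higher and 1 lower, against 7.96% and 5.65% of all genes. Slc27a2, a fatty acid transporter, had a log2 fold change of 1.03 ± 0.369 (adjusted p = 0.372), with overlapping groups. Acot1, a thioesterase, had one of 0.73 ± 0.202 (adjusted p = 0.274), without overlap. Vnn1 lay lowest, at -0.35 ± 0.118 (adjusted p = 0.345), also without overlap. Of 13 genes of the vitamin D and phosphate axis, 11 were higher, with a median of 0.26. In this list 6 higher and 0 lower had an unadjusted p under 0.05, against the same shares of all genes. Calb1, the calcium-binding protein of the distal tubule, had the highest value, 2.16 ± 0.412 (adjusted p = 0.166). Cubn, which takes up the vitamin D carrier in the proximal tubule, had one of 1.05 ± 0.334 (adjusted p = 0.325), and both genes are also in the tubule marker lists.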

How the data were processed

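RNA of 6 glomerular isolates was measured on Affymetrix arrays, 3 per group. The authors adjusted the background, quantile normalized log-transformed intensities and summarized probesets with RMA, also named in the submitters' notes on processing. The deposited values were read as log2 values, the scale RMA gives, since the table does not state its base. Detection calls and scanner output were not used, and the number of arrays limits the precision. Symbols of the 2016 platform annotation were updated by Entrez ID to RefSeq, and a gene was its probeset with 1 symbol and the highest mean.

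Groups were compared with limma (version 3.58.1, under R 4.3.3) in a model of group alone, two-sided, over all 29215 probesets, with Benjamini-Hochberg adjustment at 0.01. Alternatives were a replicate block, an intensity trend, a regularised Bayesian test with a local variance estimate and a prior weight of 10, array weights, 2 probeset filters, median centring, cyclic loess, a threshold of 0.05, gene means and each array left out. Tests were checked on simulated data. Genes named with all values were the 10 highest and 6 lowest members by log2 fold change, all Cyp4a genes and those of vitamin D and retinoic acid breakdown, and per partner list up to 2 genes of greatest difference. Members and lists were chosen with earlier results of these data known. Figures were drawn with matplotlib 3.10.9.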

Additional observations from a re-analysis of the deposited data

How the results depend on the processing

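No cytochrome P450 gene was called at an adjusted p under 0.01 in any of 16 alternatives, and 279 of 283 values of the 18 named genes kept their sign. Signs could turn only with array weights, median centring, cyclic loess or an array left out. The other alternatives left the log2 fold changes of these genes as in the main analysis, so their share of the 279 was fixed in advance. The 4 that turned were near 0, namely Cyp27b1 (main value -0.0156) at 0.0093 with cyclic loess and from -0.0715 to 0.0550 with 1 array left out (0.0377 without PEC-enriched replicate 2, 0.0550 without PEC-deprived replicate 1), and Cyp24a1 (0.19), which ranged from -0.0868 without PEC-deprived replicate 2 to 0.4048 without PEC-deprived replicate 1. Over all probesets, limma called 0 and the regularised test 119. Leaving out 1 array gave 0 to 1 called probesets, with 1 without PEC-deprived replicate 1, a Cyp4a median log2 fold change from 0.6848 without PEC-deprived replicate 2 to 1.4570 without PEC-deprived replicate 1, 32 to 38 members with a higher mean (34 in the main analysis, 40 with cyclic loess) and 17 to 26 without overlap, a count that grows when fewer arrays are compared. With only probesets above the median level, 21 members were left, 12 of them higher and 7 without overlap. Cyp4a1 and Cyp26a1 were not among the 21. The lowest adjusted p of Cyp26a1 by limma was 0.0390, with gene means, and with only 1-symbol probesets it was 0.0409. Both settings made fewer tests and also refitted the variances, and the part of each in the lower values was not tested. Without a detection call, what the array could measure of dim members is unknown.

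Deviations from the group means correlated at -0.0287, 0.0519 and 0.1004 for same-numbered arrays, and between -0.1354 and 0.0827 for differently numbered ones. The deviations of the 3 arrays of a group sum to 0, so these values are tied together. They cannot show whether same-numbered arrays share an animal. With the replicate block 0 probesets and 0 members were called, as without it, so the block had no call to change.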
